A study of Homo sapiens with 8 samples.

Results

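The genes described here are 10 nuclear genes whose proteins make, stabilise, tail or degrade the RNA of mitochondria. They were chosen by gene symbol from the deposited count table, and all 10 were found among its 35394 entries: POLRMT, TFAM, TFB2M, MTERF1, LRPPRC, SLIRP, FASTKD2, MTPAP, SUPV3L1 and PNPT1. The cells were HCT116, a human colorectal cancer line that the labels describe as epithelial cells with a ras mutation. One group of 4 libraries came from cells given Pien Tze Huang, a formula of traditional Chinese medicine that the labels abbreviate to PZH, for 24 h, and the other 4 libraries from cells given DMSO as the control. The sources used here state no dose and no exposure time for DMSO. Nothing says whether the replicates were separate cultures, so p-values measure only the spread between these libraries.

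Mitochondria carry a small circular genome that codes for subunits of the respiratory chain and for the RNAs of the mitochondrial ribosome. A dedicated RNA polymerase copies each strand into long transcripts, which are cut apart, given short poly(A) tails, held by RNA-binding proteins and finally degraded. All proteins that do this work are coded in the nucleus and imported. The comparison asks how the transcripts of these nuclear genes stood in PZH-treated cells, in a study whose title links the medicine to reactive oxygen species.

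The 10 genes did not move as a block. The RNA stabiliser LRPPRC and the DNA-packaging transcription factor TFAM fell most, to 49.3% and 56.03% of their level in DMSO. The terminator MTERF1, the stabiliser SLIRP, the exoribonuclease PNPT1 and, unless a GC trend was removed, the polymerase POLRMT fell by less. The helicase SUPV3L1, partner of PNPT1 in decay, rose 1.33-fold, and FASTKD2, a protein of mitochondrial RNA granules, rose 1.16-fold with TMM scaling but not without scaling factors. The polymerase partner TFB2M and the poly(A) polymerase MTPAP did not pass the test. In all, 6 of the 10 were called lower and 2 higher at an adjusted p under 0.05 (quasi-likelihood F test of edgeR, Benjamini-Hochberg over all genes tested). That test called 80.3% of the 15006 tested genes, 40.9% lower and 39.3% higher. Levels of the 2 groups did not overlap for 9 of the 10 genes, 7 lower and 2 higher in PZH, where 38.4% of tested genes were lower and 36.6% higher without overlap. The median log2 fold change (PZH over DMSO) was -0.25 over the 10 genes and -0.02 over all tested genes.

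PZH libraries held 18144117 to 18868057 counts and DMSO libraries 19288836 to 19917571. Levels below are CPM (counts per 1000000 counts of the library) scaled by TMM factors, which ran from 0.896 to 0.949 in PZH and from 1.09 to 1.102 in DMSO. Without these factors the median log2 fold change of all genes shifted by -0.26, so every direction is relative to the scaling. Summed levels of 5 epithelial markers were 2502 to 3007 CPM in PZH and 3487 to 3572 CPM in DMSO. They went both ways: KRT8 had 874 to 1082 CPM in PZH and 1859 to 1903 CPM in DMSO, while CDH1 had 243 to 250.5 CPM in PZH and 74.6 to 85.2 CPM in DMSO, and EPCAM 291 to 313 CPM in PZH and 262 to 285 CPM in DMSO. Summed levels of 18 markers of other cell types (erythroid, immune, endothelial and fibroblast) were 21.03 to 25.3 CPM in PZH and 12.3 to 17.1 CPM in DMSO. Of these, COL1A1 alone gave 18.4 to 21.9 CPM in PZH and 10.2 to 12.6 CPM in DMSO, and its partner chain COL1A2 had no count in any library. In RNA from whole cultures, fewer cells of a type and less RNA per cell cannot be told apart.

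**Figure D1:**
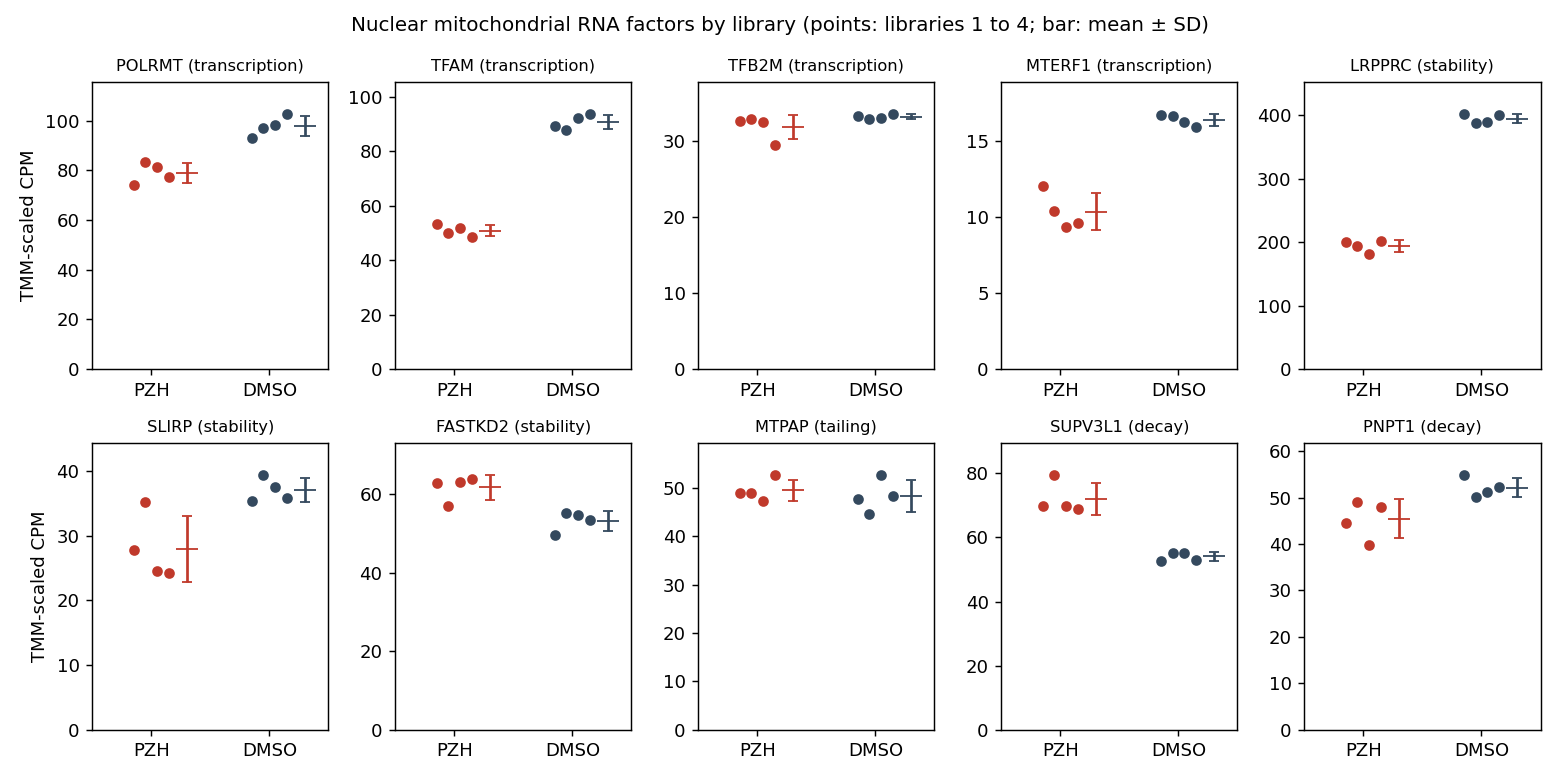
Level of each of the 10 genes in TMM-scaled CPM (vertical axes, starting at 0), with 1 point per library in replicate order and the group mean ± SD to the right of the points (n = 4 per group). LRPPRC and TFAM lie far below the DMSO libraries in every PZH library, SUPV3L1 lies above them, and the MTPAP groups overlap.

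Among the 4 transcription factors of the 10 genes, TFAM fell most. TFAM bends and packages mitochondrial DNA and recruits the polymerase to promoters. Its level was 53.3, 50.2, 51.7 and 48.4 CPM in PZH replicates 1 to 4, against 89.5, 87.9, 92.3 and 93.7 CPM in DMSO replicates 1 to 4. The highest PZH library stood well below the lowest DMSO library. The log2 fold change was -0.84 ± 0.049 (SE; edgeR adjusted p = 3.51e-13), a 1.78-fold fall.

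POLRMT, the mitochondrial RNA polymerase, had 74.2, 83.2, 81.3 and 77.2 CPM in PZH libraries, against 92.9, 97.1, 98.3 and 103 CPM in DMSO libraries. The groups did not overlap, and POLRMT fell 1.24-fold (log2 fold change -0.31 ± 0.050, edgeR adjusted p = 6.54e-06). Its longest annotated transcript has a GC content of 66.3%, while those of the other 9 genes lie between 36.5% and 45.7%. With each library's trend on GC content removed, the log2 fold change of POLRMT was 0.10 (adjusted p = 0.0626), so its fall depended on leaving that trend in. TFAM kept its fall in the same comparison, at -0.93.

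TFB2M, the factor that opens promoter DNA for the polymerase, had 32.6, 32.8, 32.4 and 29.4 CPM in PZH libraries, against 33.3, 32.9, 33.1 and 33.5 CPM in DMSO libraries. All PZH values lay below all DMSO values, but 3 of the 4 did so by under 1 CPM. The log2 fold change of -0.06 did not pass the test (95% interval -0.19 to 0.07, edgeR adjusted p = 0.363). It passed with upper quartile factors (-0.13, adjusted p = 0.0483) and without scaling factors (-0.32, adjusted p = 1.31e-04).

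MTERF1, which binds mitochondrial DNA just past the ribosomal RNA genes and stops the polymerase there, was the least abundant of the 10. It had 12.1, 10.4, 9.36 and 9.57 CPM in PZH libraries, against 16.7, 16.7, 16.3 and 15.9 CPM in DMSO libraries. The fall was 1.58-fold (log2 fold change -0.66 ± 0.096, edgeR adjusted p = 1.51e-06). Between PZH libraries MTERF1 varied by 11.8% of its mean, where counting error alone gives about 7.55%.

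The starts of these genes are known in part for binding sites of NRF1 (nuclear respiratory factor 1, not the oxidative stress factor NRF2) and of ETS factors such as GABP, which drive many nuclear genes of mitochondria. The stretches below are shown because they let the genes that moved and those that did not be compared at the sequence level. They run from 100 bases before to 50 bases after the start of transcription in RefSeq (GRCh38.p14), read 5′ to 3′ along the gene, with matches in capitals. The letters searched on both strands were GCGCNTGCG for NRF1 and CCGGAAG for ETS factors. No match of one overlapped a match of the other, and the 3 NRF1 matches of POLRMT overlap one another as 1 block of capitals. POLRMT lies at chr19:633488-633637 (minus strand), TFAM at chr10:58385310-58385459 (plus), TFB2M at chr1:246566212-246566361 (minus), MTPAP at chr10:30349229-30349378 (minus), LRPPRC at chr2:43995940-43996089 (minus) and SUPV3L1 at chr10:69180134-69180283 (plus).
POLRMT: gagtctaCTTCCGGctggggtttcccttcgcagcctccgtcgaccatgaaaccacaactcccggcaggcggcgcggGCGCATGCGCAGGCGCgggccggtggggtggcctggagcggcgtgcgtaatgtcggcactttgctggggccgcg
TFAM: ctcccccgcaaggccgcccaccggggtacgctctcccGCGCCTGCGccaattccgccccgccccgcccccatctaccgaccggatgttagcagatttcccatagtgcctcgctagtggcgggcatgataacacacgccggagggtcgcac
TFB2M: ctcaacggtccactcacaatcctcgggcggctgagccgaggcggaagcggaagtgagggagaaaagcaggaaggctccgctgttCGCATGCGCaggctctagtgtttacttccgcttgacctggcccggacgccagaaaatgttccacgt
MTPAP: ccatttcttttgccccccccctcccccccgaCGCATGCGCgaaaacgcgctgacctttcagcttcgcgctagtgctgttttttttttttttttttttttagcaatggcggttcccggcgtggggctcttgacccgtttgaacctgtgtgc
LRPPRC: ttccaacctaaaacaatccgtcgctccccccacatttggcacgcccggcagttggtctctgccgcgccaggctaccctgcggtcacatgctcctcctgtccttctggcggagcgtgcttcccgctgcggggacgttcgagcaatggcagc
SUPV3L1: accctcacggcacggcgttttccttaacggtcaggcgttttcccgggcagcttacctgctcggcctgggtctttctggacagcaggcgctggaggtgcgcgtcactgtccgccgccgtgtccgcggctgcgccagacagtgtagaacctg

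All 10 genes had a window in the RefSeq table. Over the whole window of 250 bases before to 50 after the start, the NRF1 letters were found in 4 of the 10 genes and in 7.47% of the 35116 windows of all genes. These letters are a shorter form of the motif, chosen after the sequences were seen, so the shares cannot show an excess. The 10 were counted by gene and the background by window. The 4 genes were POLRMT, TFAM, TFB2M and MTPAP, whose log2 fold changes ran from -0.84 to 0.03. The ETS letters were found in 3 of the 10, POLRMT, MTERF1 and SLIRP, and in 10.3% of all windows. LRPPRC, which fell most, and SUPV3L1, which rose most, held neither. A match is a run of letters and not a shown binding site. Sites with other letters were not searched for, so a missing match does not show that a site is absent.

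LRPPRC and SLIRP form a complex in the mitochondrial matrix that coats messenger RNAs, keeps them from decay and promotes their polyadenylation. LRPPRC had 201, 194, 181 and 202 CPM in PZH libraries, against 402, 388, 390.2 and 400.5 CPM in DMSO libraries. Its level in every PZH library was far below that of any DMSO library, and 18.5% of all tested genes had a lower log2 fold change. LRPPRC fell 2.03-fold (log2 fold change -1.02 ± 0.047, edgeR adjusted p = 3.79e-15), and ran from -1.28 without scaling factors to -0.98 without PZH replicate 3.

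SLIRP had 27.8, 35.1, 24.6 and 24.2 CPM in PZH libraries, against 35.4, 39.4, 37.5 and 35.8 CPM in DMSO libraries. PZH replicate 2 came within 1 CPM of the lowest DMSO library, while the other PZH libraries stood far below. SLIRP fell 1.32-fold (log2 fold change -0.41 ± 0.089, edgeR adjusted p = 2.45e-04). It was the most variable of the 10, at 18.2% of its mean between PZH libraries against 4.60% from counting error. In GENCODE 29 its exons share 118 bases with those of SNW1 on the opposite strand, which had 11997 counts over the PZH libraries and 9735 over the DMSO libraries, and whether counting used strand is not stated.

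FASTKD2, an RNA-binding protein of mitochondrial RNA granules needed for ribosome assembly and for some messenger RNAs, went the other way. It had 62.7, 56.9, 63.1 and 63.9 CPM in PZH libraries, against 49.6, 55.2, 54.8 and 53.2 CPM in DMSO libraries. The groups did not overlap, with PZH replicate 2 nearest to DMSO. FASTKD2 rose 1.16-fold (log2 fold change 0.21 ± 0.055, edgeR adjusted p = 0.00118). The rise was lost without scaling factors (-0.046, adjusted p = 0.468) and with the GC trend removed (0.10, adjusted p = 0.103). Its exons share 191 bases with the opposite gene MDH1B, which had 88 counts over the PZH libraries and 343 over the DMSO libraries.

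MTPAP adds the short poly(A) tails of mitochondrial messenger RNAs. It had 49.1, 49.03, 47.2 and 52.6 CPM in PZH libraries, against 47.8, 44.7, 52.7 and 48.3 CPM in DMSO libraries. The ranges overlapped, and the log2 fold change of 0.03 did not pass (95% interval -0.09 to 0.16, edgeR adjusted p = 0.611). That interval does not reach a change of the size seen for LRPPRC or TFAM. Without scaling factors MTPAP was called lower (-0.23, adjusted p = 0.00174). Its exons share 1120 bases with AL353796.2 on the opposite strand, which has no entry in the count table, so the part of such reads cannot be checked.

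SUPV3L1 and PNPT1 together form the mitochondrial degradosome, in which the helicase SUPV3L1 unwinds RNA and the exoribonuclease PNPT1 digests it from the 3′ end. SUPV3L1 had 69.9, 79.5, 69.7 and 68.8 CPM in PZH libraries, against 52.7, 55.3, 55.3 and 53.01 CPM in DMSO libraries. It rose 1.33-fold with no overlap (log2 fold change 0.41 ± 0.054, edgeR adjusted p = 3.31e-07), and stayed called higher without scaling factors (0.15, adjusted p = 0.0139). PNPT1 had 44.5, 49.1, 39.8 and 48.04 CPM in PZH libraries, against 54.9, 50.03, 51.3 and 52.2 CPM in DMSO libraries. PZH replicates 2 and 4 came close to the lowest DMSO library. PNPT1 fell 1.15-fold (log2 fold change -0.20 ± 0.063, edgeR adjusted p = 0.00620), and the fall was near the threshold without PZH replicate 3 (-0.13, adjusted p = 0.0449).

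**Figure D2:**
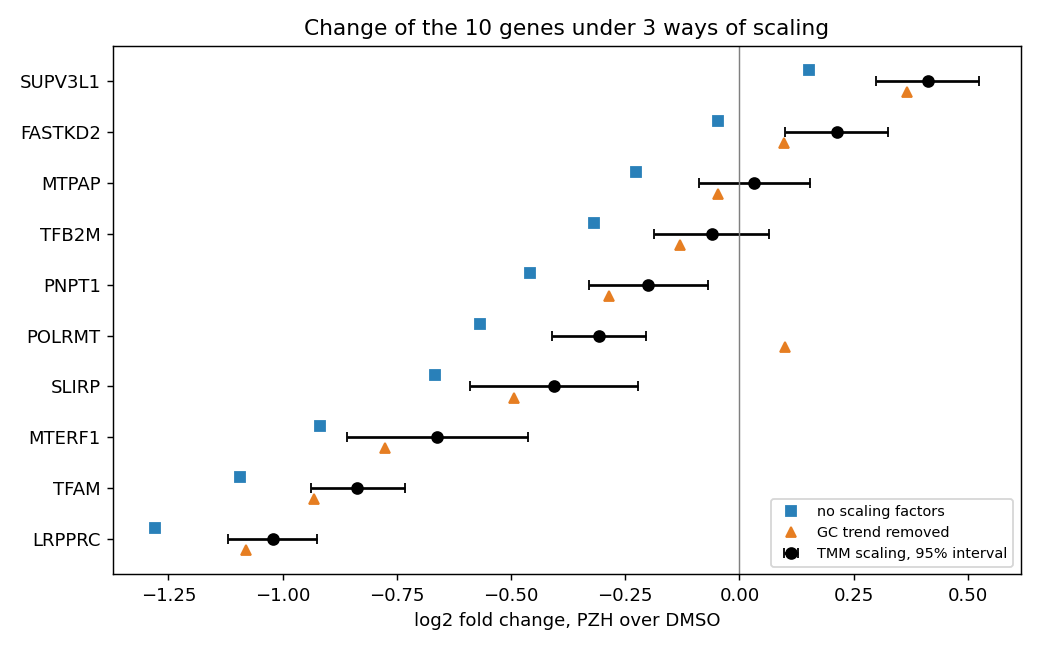
Log2 fold change of each gene, PZH over DMSO (horizontal axis), with TMM scaling and its 95% interval (black circles), without scaling factors (blue squares) and with the GC trend removed (orange triangles). Leaving out the factors moves all 10 genes to the left by about the same amount, and removing the GC trend moves POLRMT across 0, from -0.31 to 0.10.

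Ratios between partner genes within a library need no scaling factor. They were taken from CPM per kb of merged exon in GENCODE 29, and their size, though not their change between groups, depends on these lengths. LRPPRC over SLIRP was 1.596, 1.22, 1.63 and 1.85 in PZH libraries, against 2.50, 2.18, 2.30 and 2.47 in DMSO libraries. PNPT1 over SUPV3L1 was 0.359, 0.348, 0.322 and 0.393 in PZH libraries, against 0.586, 0.5096, 0.522 and 0.555 in DMSO libraries. In both pairs the groups did not overlap, and the mean ratio in PZH was 0.666 and 0.655 of that in DMSO. TFAM over TFB2M was 0.546 ± 0.018 in PZH libraries and 0.934 ± 0.023 in DMSO libraries (SD, n = 4 each). The 2 transcripts that moved furthest apart were SUPV3L1 and LRPPRC: their ratio was 0.992 ± 0.086 in PZH libraries and 0.367 ± 0.016 in DMSO libraries (SD, n = 4 each).

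**Figure D3:**
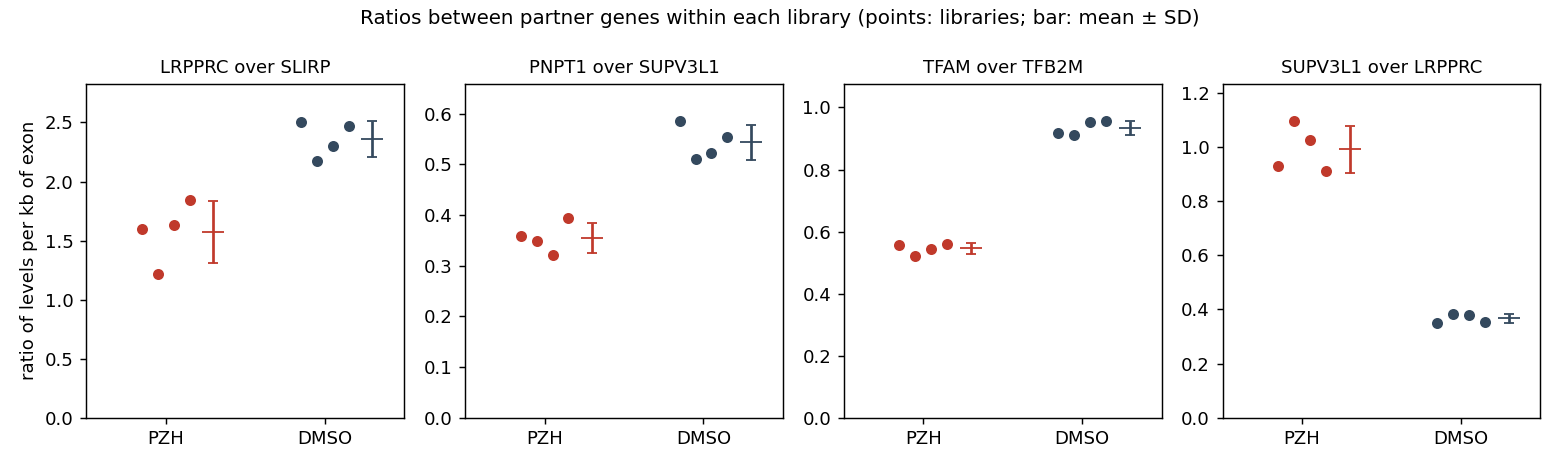
Ratio of levels per kb of exon within each library (vertical axes, starting at 0) for 4 gene pairs, with 1 point per library and the group mean ± SD (n = 4 per group). LRPPRC over SLIRP, PNPT1 over SUPV3L1 and TFAM over TFB2M lie lower in all PZH libraries, and SUPV3L1 over LRPPRC lies higher in all of them.

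The order of the levels changed as well. Any such order depends on the merged exon lengths, which pool the exons of all annotated transcripts of a gene. Per kb of exon, LRPPRC (29.3 ± 1.42 CPM) and SUPV3L1 (28.97 ± 2.03 CPM) led in PZH libraries, with overlapping ranges (SD, n = 4). In DMSO libraries LRPPRC stood alone at 59.4 ± 1.05 CPM per kb, and POLRMT (25.5 ± 1.04) and SLIRP (25.2 ± 1.23) followed with overlapping ranges, ahead of SUPV3L1 at 21.8 ± 0.563. TFAM stood at 9.40 ± 0.389 CPM per kb in PZH libraries and 16.8 ± 0.490 in DMSO libraries, where it was level with FASTKD2 at 16.1 ± 0.767. In PZH libraries TFAM instead shared its range with PNPT1 (10.3 ± 0.952) and MTPAP (8.84 ± 0.404). MTERF1 was lowest in both groups, at 2.55 ± 0.301 CPM per kb in PZH libraries and 4.04 ± 0.0920 in DMSO libraries.

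The spread between libraries was larger in PZH than in DMSO for 9 of the 10 genes, and for 71.8% of 15000 tested genes with a value in both groups. MTPAP was the exception, at 4.57% of its mean in PZH and 6.84% in DMSO. The edgeR fit gave each gene a single spread for both groups, so its standard errors and p-values do not show this inequality. PZH replicates 3 and 4 lay closer to each other than to replicates 1 and 2 (chi-square over degrees of freedom of 4.03, while the other PZH pairs had 8.33 to 12.3). MTERF1, SLIRP, TFB2M and SUPV3L1 were lower in both of these libraries than in both of the others, and FASTKD2 was higher. Over all tested genes, 17.6% were lower and 17.8% higher in that way. No call of the 10 genes changed on leaving out any single library.

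Other genes that handle mitochondrial DNA and RNA were counted from a list of 52, of which 51 were tested. Of these, 31 were called lower (60.8%) and 10 higher (19.6%), with a median log2 fold change of -0.30. Over all tested genes, 40.9% were called lower and 39.3% higher, shares that also stand beside the lists below. The 10 genes described above were called much like these 51, 60% lower and 20% higher. The 10 genes and these lists were chosen with earlier results of these data known, so their shares cannot show an excess over all tested genes. The untested gene, PPARGC1A, a coactivator, had 1 count over the PZH libraries and none over the DMSO libraries.

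Of 7 genes for cutting mitochondrial RNA and processing its tRNAs, 6 were called lower and 0 higher (median log2 fold change -0.58). Of 5 genes listed as other transcription factors, among them the methyltransferase TFB1M, 4 were called lower and 0 higher (median -0.33). TRMT10C, a subunit of mitochondrial RNase P, fell 2.71-fold to 24.9 ± 1.597 CPM in PZH, against 67.7 ± 3.27 CPM in DMSO (SD, n = 4 each). The catalytic subunit of RNase P, listed under its older name KIAA0391, fell 2.61-fold, and ELAC2, which cuts the 3′ ends of tRNAs, fell 2.12-fold. KIAA0391 had only 17 to 42 counts in PZH libraries and 100 to 137 in DMSO libraries. MTERF3, MTERF2 and TFB1M, which methylates mitochondrial ribosomal RNA, fell 2.13-fold, 1.78-fold and 1.21-fold. MTERF2 had only 35 to 59 counts in PZH libraries and 91 to 133 in DMSO libraries.

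In the list of RNA granules, stability and decay, 11 of 17 were called lower and 3 higher, with the RNA-binding matrix protein C1QBP, RPUSD4 and TRUB2 lower by 2.06-fold, 1.78-fold and 1.85-fold. The last 2 are pseudouridine synthases, but RPUSD3, another such enzyme of the list, rose 1.33-fold. The 3 genes called higher, named after their values were seen, were RPUSD3, NGRN (1.43-fold) and RCC1L (1.12-fold). The RCC1L groups overlapped, at 49.4 to 59.8 CPM in PZH and 46.5 to 52.5 CPM in DMSO (edgeR adjusted p = 0.0185). Of 5 genes that modify mitochondrial ribosomal RNA, 3 were lower and 1 higher. MRM2 and MRM1, methyltransferases of the large ribosomal RNA, fell 1.76-fold and 1.76-fold, and NSUN4, a methyltransferase of the small ribosomal RNA, rose 1.97-fold. Of 11 nucleoid and replication genes, 5 were called lower (45.5%, near the 40.9% of all tested genes) and 2 higher. The exonuclease MGME1 fell 2.56-fold, while DNA ligase LIG3, which also serves the nucleus, and the protease LONP1, which degrades TFAM, rose 1.76-fold and 1.34-fold.

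Of 6 nuclear regulators, 4 were called higher and 2 lower. GABPB1 and GABPA, which together form the ETS factor GABP, rose 2.77-fold and 1.29-fold. Without scaling factors their log2 fold changes were 1.21 and 0.11 (edgeR adjusted p = 6.96e-14 and 0.0450), the second near the threshold. The coactivator PPARGC1B fell 3.68-fold to 8.14 ± 0.863 CPM in PZH, against 29.9 ± 2.17 CPM in DMSO (SD, n = 4 each). NRF1, named here after its values were seen because its letters were searched for, rose 1.22-fold (log2 fold change 0.29, edgeR adjusted p = 4.63e-04), a call that was lost without scaling factors (0.03, adjusted p = 0.738).

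**Figure D4:**
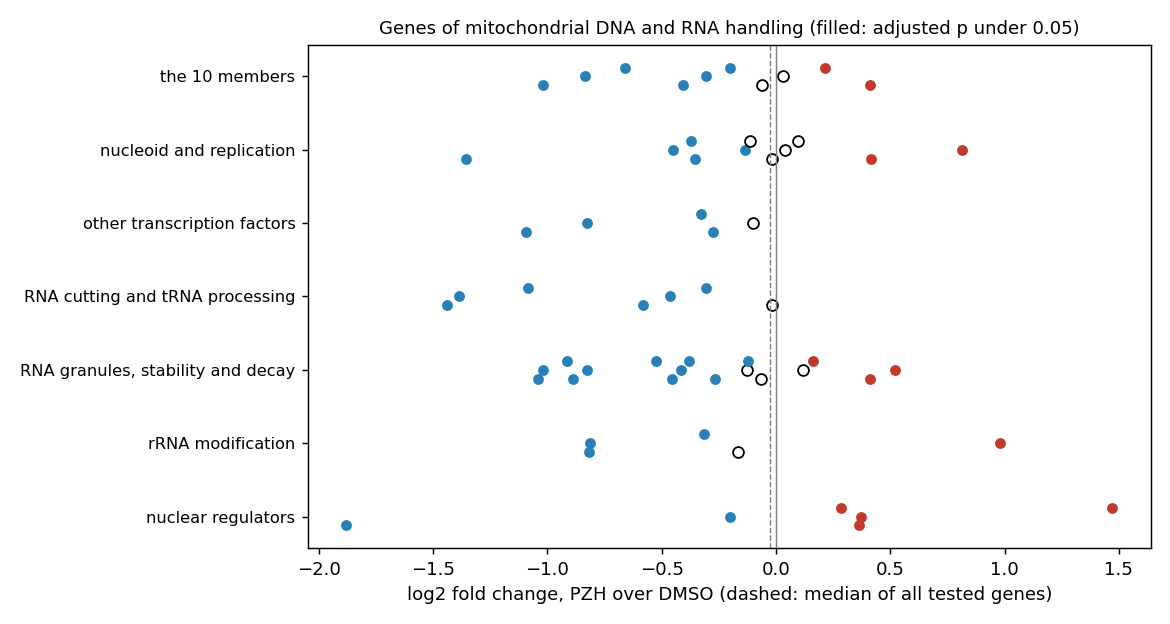
Log2 fold change, PZH over DMSO (horizontal axis), of the 10 genes and of 51 other genes in 6 lists (rows), 1 circle per gene, spread vertically only for legibility. Filled circles passed an adjusted p of 0.05 (blue lower, red higher in PZH), open circles did not, and the dashed line is the median of all tested genes at -0.02. RNA cutting and other transcription factors hold no gene called higher, and the nuclear regulators hold 4.

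The RNAs these proteins act on changed in composition. Counts of the 13 mitochondrial messenger RNAs per count of mitochondrial ribosomal RNA were 0.495, 0.521, 0.618 and 0.584 in PZH libraries, against 3.54, 3.53, 3.63 and 3.59 in DMSO libraries. The groups did not overlap (exact two-sided permutation p = 0.0286, the smallest that 70 assignments allow, and 0.0286 after adjustment over 3 measures). MT-RNR1 and MT-RNR2, the ribosomal RNAs, had log2 fold changes of 2.09 and 1.76. Among messenger RNAs of the heavy strand, MT-ND1, MT-ATP6, MT-CO1 and MT-CYB fell 1.23-fold, 1.77-fold, 2.05-fold and 2.38-fold. The 2 ends of the heavy strand range, named after their values were seen, were MT-ND3, which fell 4.25-fold, and MT-ND2, which did not pass (log2 fold change -0.03, edgeR adjusted p = 0.627). MT-ND6, the one messenger RNA made from the light strand promoter, fell 4.60-fold, a value that could include reads of the opposite strand. The libraries were made from poly(A)-selected RNA. A change in how an RNA passed that selection, such as through its tail, and a change in amount therefore cannot be told apart. How the reads of MT-ND6 came through that selection was not tested. The part of the 10 nuclear genes in these values was not tested.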

How the data were processed

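The 8 samples are poly(A)-selected RNA-seq libraries of HCT116. Per the labels' protocols, RNA was extracted with Trizol, poly(A) RNA was picked out on magnetic beads and the NEBNext Ultra RNA kit was used to build libraries. The submitters' processing notes name DESeq 1.28.0, StringTie 1.3.3b, FastQC 0.11.5 and HISAT2 2.1.0, with no role for each. The build, the annotation and any use of strand are not given in the sources here. The authors deposited raw counts per gene symbol, 1 column per library, with no normalization.

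Genes were kept by filterByExpr (minimum count 10, minimum total 15), scaled by TMM and tested with edgeR 4.0.16 (glmQLFit, glmQLFTest, group as the only term, two-sided, Benjamini-Hochberg over 15006 genes, threshold 0.05) in R 4.3.3. Standard errors are log2 fold changes over the square root of F. A floor of 3 counts is 0.151 to 0.165 CPM, for counting error only. Every replicate pair differed beyond counting noise (chi-square over degrees of freedom 2.39 to 12.3), and each counted as its own replicate. The fit was tested on simulated counts in which most genes did not change and both groups had the same spread. That test does not cover scaling when most genes move, nor the larger spread in PZH. Exon lengths and GC content came from GENCODE 29, and 99.07% of tested genes had a GC value. The 10 genes and the lists were chosen with earlier results of these data known, so ratios between them carry no p-value. For the same reason, their shares of calls cannot show an excess. The shorter form of the NRF1 motif was chosen after the sequences were seen. Named genes were all 10 members, up to 3 called genes with the smallest p per other list, and 7 mitochondrial genes. Alternatives were RLE, upper quartile and no factors, no filter, a CPM of at least 1 in 4 libraries, DESeq2 1.42.0, limma-voom (limma 3.58.1), the replicate number as a block, a threshold of 0.01, leaving out each library and, added after seeing the data, removal of each library's loess trend on GC content (span 0.3).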

Additional observations from a re-analysis of the deposited data

Results flagged for a closer look

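In 3 of 20 groups of 4 libraries (10 genes, 2 groups each), 1 library stood apart from the other 3 by a gap above Dixon's 95% critical value for the gap over the group's range, where chance gives about 1 in 20. TFB2M had 29.4 CPM in PZH replicate 4, below 32.4 to 32.8 CPM in the other PZH libraries. FASTKD2 had 56.9 CPM in PZH replicate 2, below 62.7 to 63.9 CPM. SUPV3L1 had 79.5 CPM in PZH replicate 2, above 68.8 to 69.9 CPM. All 3 libraries belonged to PZH. Without PZH replicate 2, the log2 fold changes were 0.26 for FASTKD2 and 0.37 for SUPV3L1, both still called higher. Without PZH replicate 4, TFB2M had a log2 fold change of -0.02 (edgeR adjusted p = 0.798).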

How the results depend on the processing

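LRPPRC, TFAM, MTERF1, SLIRP, PNPT1 and SUPV3L1 kept their direction and call under all 18 alternatives. Without scaling factors 1 of the 10 genes was called higher and 8 lower. FASTKD2 then turned to -0.046 (adjusted p = 0.468) and MTPAP to -0.23 (adjusted p = 0.00174). With the GC trend removed 1 was called higher and 5 lower, and POLRMT turned to 0.10 (adjusted p = 0.0626). The causes were not tested. Leaving out the factors shifted all genes by -0.26, and calls among them were then 36.8% higher against 49.0% with TMM factors. Among the other 51 genes, 8 were called higher and 39 lower without scaling factors, against 10 and 31 with TMM factors. All tested genes were then called 29.8% higher and 51.1% lower. With the GC trend removed, 14 of these other genes were called higher and 27 lower, beside 41.1% higher and 39.4% lower of all genes. Leaving out each library gave 2 higher and 6 lower of the 10 every time. Same-numbered libraries deviated together with correlations of 0.001 to 0.011 over genes, so the numbers did not pair them, and the replicate block gave 2 higher and 6 lower of the 10, 5889 and 6125 of all genes, and 10 and 32 of the other 51. The messenger to ribosomal RNA difference was -3.04 to -3.00 per library left out. Among the 10 genes, depth limits MTERF1 most, with 155 to 213 counts in PZH libraries and 333 to 366 in DMSO libraries.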
